A study of Mus musculus with 2 samples.

Results

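The genes of monocyte recruitment described here, class by class in ID8 tumours, are the chemokines Ccl2, Ccl7, Ccl8, Ccl12, Ccl6, Ccl9 and Pf4 and the receptors Ccr2 and Cx3cr1. They are 9 of the 33696 genes in the deposited matrices and were chosen by name, with earlier results of these data known. The data are single-cell transcriptomes of solid tumours of the ID8 model, in which a mouse ovarian surface epithelial line grows in the abdomen of mice. One library came from treatment naive primary tumours, and 1 from chemoresistant tumours of mice given cisplatin, which damages DNA. Tumour cell suspensions were pooled for each library. The sources used here do not give the number of tumours, the strain or age of the mice, or the dose and schedule of cisplatin. With 1 library per group, no difference below has a replicate check and no test was possible. Intervals are 95% intervals of counting error only.

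Chemokines are small secreted proteins that guide leukocytes along a gradient. Ccl2 and its close relatives Ccl7 and Ccl12 bind the receptor Ccr2, through which classical monocytes leave the bone marrow and enter inflamed tissue and tumours, where many become macrophages. Ccl8 belongs to the same group by sequence, and the mouse protein is known to act on Ccr8. Cx3cr1 is the receptor for the membrane-bound chemokine Cx3cl1 and is carried by non-classical monocytes and some tissue macrophages. Ccl6 and Ccl9 are myeloid chemokines of rodents that act on Ccr1. Pf4, a CXC chemokine best known from platelet granules, is also made by macrophages.

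The coding sequences are shown first because these chemokines are close relatives of one another. Each line gives the coding stretch around the first cysteines of the protein, 5′ to 3′, read from the GENCODE transcripts of the GRCm38 build, with the cysteine codons in capitals.
Ccl2: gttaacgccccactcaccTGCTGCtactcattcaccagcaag
Ccl7: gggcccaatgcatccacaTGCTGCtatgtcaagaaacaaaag
Ccl8: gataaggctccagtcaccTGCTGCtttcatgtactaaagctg
Ccl12: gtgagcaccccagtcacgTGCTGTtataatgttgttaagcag
Ccl6: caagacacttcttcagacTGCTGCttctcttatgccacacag
Ccl9: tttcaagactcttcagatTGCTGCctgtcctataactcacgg
Pf4: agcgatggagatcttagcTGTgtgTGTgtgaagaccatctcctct
The 6 CC chemokines carry both codons side by side, and Pf4 has 1 codon between them, which is the difference that gives the CC and CXC families their names. Among Ccl2, Ccl7, Ccl8 and Ccl12 the coding sequences were 69.1% to 72.4% identical, and Ccl6 and Ccl9 were 70.6% identical. The longest run shared by the transcripts of any pair was 25 bases, between Ccl6 and Ccl9.

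The first 4 ligands are neighbours on the plus strand of chromosome 11 (GRCm38), with Ccl2 at 82035571 to 82037453, Ccl7 at 82045712 to 82047525, Ccl12 at 82101845 to 82103400 and Ccl8 at 82115185 to 82116799. Ccl9 (83572919 to 83578636) and Ccl6 (83587882 to 83593087) lie next to each other on the minus strand of the same chromosome. Ccr2 (124101950 to 124113557, plus strand) and Cx3cr1 (119901616 to 120069879, minus strand) are on chromosome 9, and Pf4 (90772435 to 90773383, plus strand) is on chromosome 5. All are protein coding, and their identifiers in the annotation and in the deposited gene list are the same. The annotated span of Cx3cr1 contains other genes, and those of Ccl2 and Ccl6 overlap a gene of the opposite strand (Gm17268 and E230016K23Rik). The sources used here do not say how strand was treated in counting.

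The primary library held 141334623 transcript molecules (UMIs) in 14390 barcodes and the chemoresistant library 158118781 in 16390. After filters and doublet removal, 11508 and 13130 cells remained, and 38 barcode sequences occurred in both. A cell took its class from counts of detected markers, with at least 3 markers of a lineage and a lead of at least 2 over the next, which named 9197 and 11017 cells. Such a class is a range of marker counts: 591 primary and 1071 chemoresistant cells sat exactly at the required lead, and 710 and 790 fell 1 marker short of it. Mononuclear phagocytes, that is monocytes and macrophages, numbered 2558 and 3769, tumour epithelial or mesothelial cells 412 and 2556, and fibroblasts 111 and 196. The tumour epithelial and mesothelial lists did not part the cells and were read as 1 class. Phagocyte markers were detected at a median of 2 per cell in the tumour class and 3 in fibroblasts, in both libraries. Only the primary library held adipocytes (27 cells) and pancreatic acinar cells (48), and it held 54 enterocytes against 2. Phagocytes carried a median of 10619.5 and 5191 UMIs per cell, B-lineage cells 4306 and 1495, and neutrophils 2390 and 896. Levels are counts per 1000000 UMIs (CPM) of the summed cells of a class, for classes with at least 50 cells in that library.

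Mononuclear phagocytes were the main holders of all 9 transcripts. They accounted for 54.4% of all primary Ccl2 UMIs and 58.9% of the chemoresistant ones, the lowest share of the 9 in each library. For Pf4 the share was 83.8% and 89.4%, and for Ccl12 85.2% and 86.8%. The other 6 lay between 65.5% (Ccl7) and 79.9% (Ccl6) in the primary library and between 70.7% (Ccl7) and 87.5% (Ccl8) in the chemoresistant library. Not every other UMI marks a cell that transcribes the gene, because free RNA enters every droplet. B-lineage cells, which should lack these chemokines, give the size of that background. After thinning every cell to 1000 UMIs, Ccl6 was seen in 10.9% of primary and 14.6% of chemoresistant B-lineage cells, Pf4 in 9.17% and 7.07%, Ccl9 in 2.73% and 3.93% and Ccl2 in 1.82% and 1.84%. Ccl7, Ccl12 and Cx3cr1 were each in under 1% of them in both libraries, Ccl8 in 1.42% and 0.544% and Ccr2 in 1.55% and 1.26%.

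**Figure D1:**
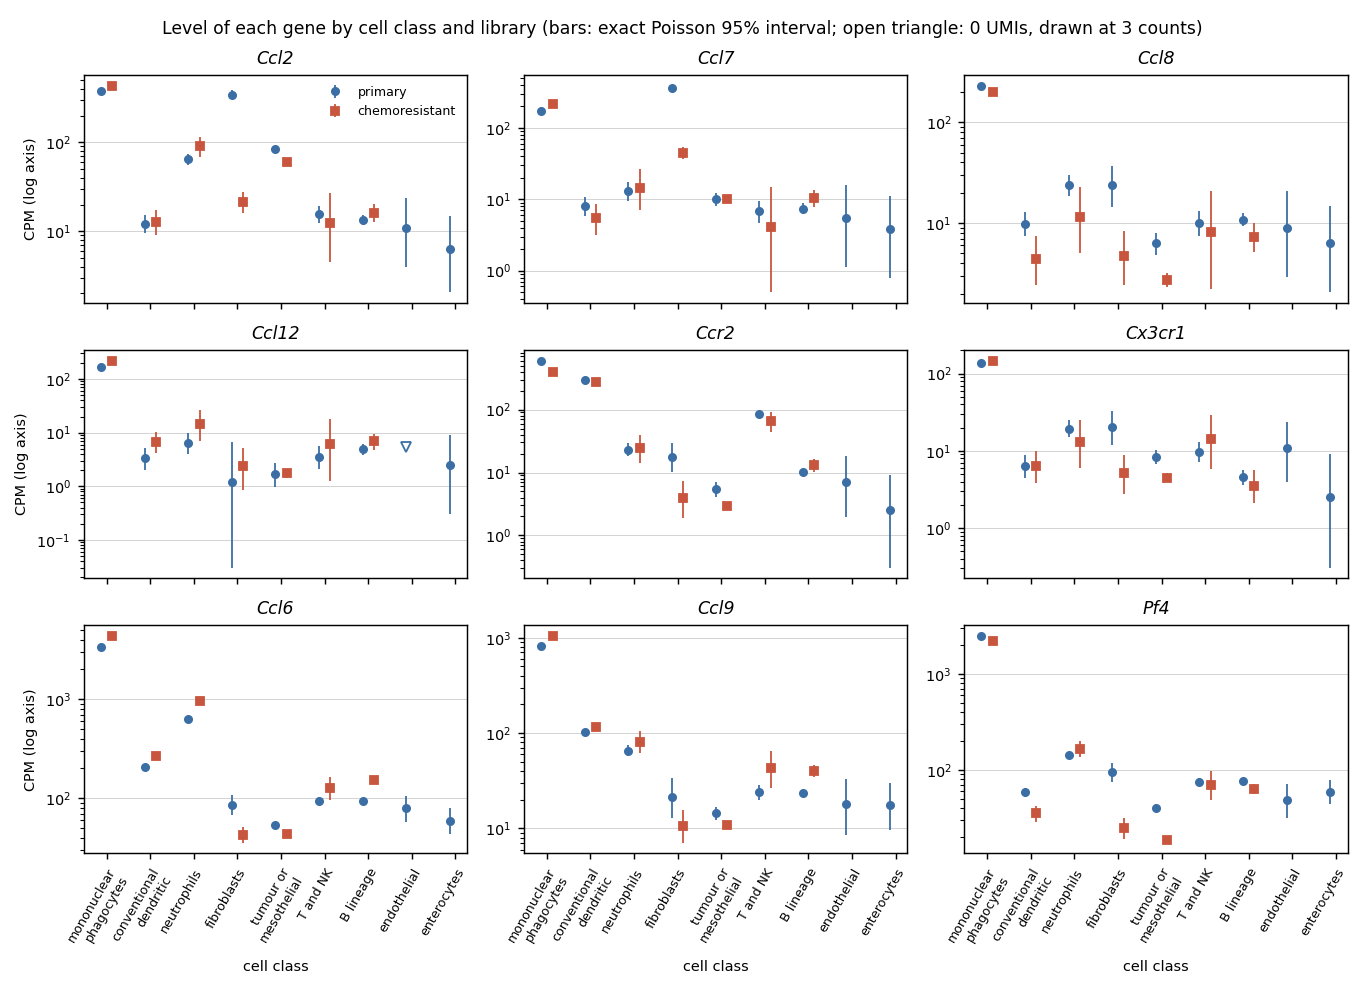
Level of each gene (CPM, log axis) in each cell class with at least 50 cells, with circles for the primary and squares for the chemoresistant library and bars for exact Poisson 95% intervals. Mononuclear phagocytes stood highest for 8 of the 9 genes in both libraries, and Ccl7 was higher in primary fibroblasts than in primary phagocytes. For Ccl2 the intervals of primary phagocytes and primary fibroblasts overlapped. Of the 111 primary fibroblasts, 16 held 90.0% of their Ccl7 UMIs.

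Ccl2, the principal Ccr2 ligand, stood at 379.9 CPM (interval 372.8 to 387.1) in primary phagocytes and 433 CPM (425 to 442) in chemoresistant ones. Thinned to equal depth, 22.9% and 23.0% of phagocytes held a Ccl2 UMI, and without thinning 61.7% and 51.0%, against 7.13% and 2.81% of B-lineage cells. Next in the primary library came fibroblasts with 344 CPM (306 to 386), then the tumour class with 85.0 CPM (79.4 to 90.9) and neutrophils with 64.2 CPM (55.7 to 73.5). The intervals of phagocytes and fibroblasts overlapped, and those of the tumour class and neutrophils did not. Over all 446 primary cells of the cluster with most of these fibroblasts, Ccl2 was at 519 CPM (501 to 538). That interval lay above the one of the phagocytes. Over both libraries, 70.8% of the cells of that cluster took no class. In T and NK cells, B-lineage cells and conventional dendritic cells Ccl2 lay between 12.2 and 15.5 CPM with overlapping intervals.

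The order below phagocytes was different in the chemoresistant library. Neutrophils had 90.0 CPM of Ccl2 (69.0 to 115), the tumour class 60.2 CPM (58.1 to 62.2) and fibroblasts 21.3 CPM (16.0 to 27.8). Thinned, 5.49% (4.29 to 6.91%) of primary and 5.35% (2.88 to 8.97%) of chemoresistant neutrophils held a Ccl2 UMI. In B-lineage cells the shares were 1.82% (1.37 to 2.37%) and 1.84% (1.34 to 2.46%). Only 243 of the 659 chemoresistant neutrophils were deep enough to be thinned. Neutrophils were the shallowest class, so that a given amount of free RNA takes a larger part of their UMIs. Its part in their level was not tested.

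In the tumour class, Ccl2 stood furthest from the ratios of free RNA. Free RNA keeps its genes in 1 ratio in every cell type, so Ccl6, whose UMIs came mostly from phagocytes, was used as the yardstick. Per 100 Ccl6 UMIs, B-lineage cells held 14.2 Ccl2 UMIs in the primary and 10.49 in the chemoresistant library, and phagocytes 11.4 and 9.92. The tumour class held 159.7 and 138. Its Ccl2 sat in few cells: 24 of 412 primary cells had more than 5 Ccl2 UMIs and held 84.6% of the class total, and 130 of 2556 chemoresistant cells held 72.0%. Thinned, 5.69% (3.64 to 8.42%) of primary and 4.03% (3.30 to 4.88%) of chemoresistant tumour-class cells had a Ccl2 UMI, against 1.82% and 1.84% of B-lineage cells.

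**Figure D2:**
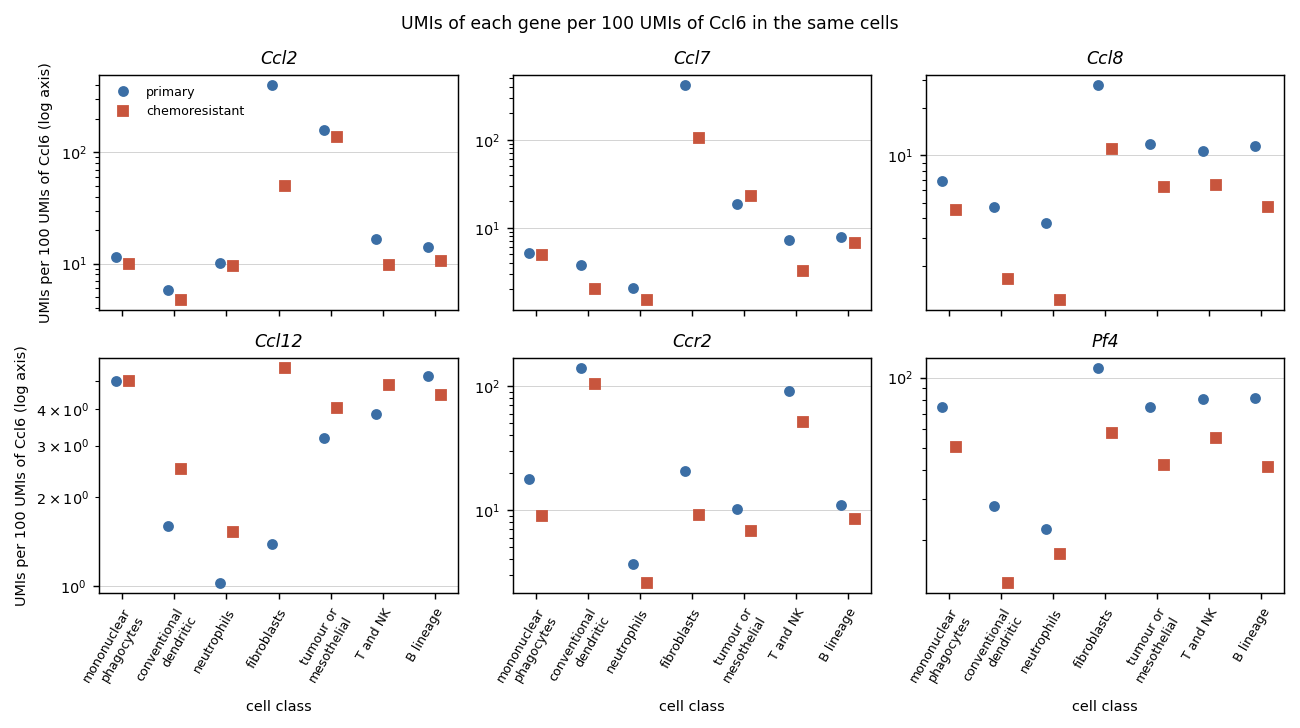
UMIs of 6 of the genes per 100 UMIs of Ccl6 in the same cells (log axis), by cell class, with circles for the primary and squares for the chemoresistant library. Ccl2 in the tumour class stood at 159.7 and 138 against 14.2 and 10.49 in B-lineage cells, and fibroblasts were also far above the other classes for Ccl2 and Ccl7.

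Ccl7, a second Ccr2 ligand, was at 172 CPM (168 to 177) in primary and 214 CPM (208 to 220.1) in chemoresistant phagocytes. Primary fibroblasts had 357 CPM (318 to 400.1), above the interval of the phagocytes. Of these 111 fibroblasts, 16 had more than 5 Ccl7 UMIs and held 90.0% of the class total. Over all 446 primary cells of the cluster with most of these fibroblasts, Ccl7 was at 179 CPM (168 to 189.9). That interval overlapped the one of the phagocytes. Chemoresistant fibroblasts had 45.0 CPM (37.1 to 54.0). The remaining classes were low, with 9.97 and 10.1 CPM in the tumour class and 7.40 and 10.4 CPM in B-lineage cells. Thinned, Ccl7 was in 0.990% and 0.838% of tumour-class cells and in 0.910% and 0.921% of B-lineage cells, with overlapping intervals. Per 100 Ccl6 UMIs, however, the tumour class held 18.7 and 23.0 Ccl7 UMIs and B-lineage cells 7.88 and 6.78. More than 5 Ccl7 UMIs were found in 4 primary and 21 chemoresistant tumour-class cells, which held 30% and 40.7% of the class total. No cell of the shallower B-lineage class had more than 5. The measures thus differ on whether tumour-class Ccl7 is above background.

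Ccl8 was at 229 CPM (223 to 234) in primary and 198 CPM (193 to 204) in chemoresistant phagocytes. No other class of at least 50 cells reached 25 CPM in either library. Primary fibroblasts (23.9 CPM, 14.6 to 36.9) and primary neutrophils (23.7 CPM, 18.7 to 29.7) came next with overlapping intervals. Ccl12 is a Ccr2 ligand of the mouse. It was measured at 166 CPM (161 to 170.4) in primary phagocytes. Chemoresistant phagocytes had 218 CPM (212 to 224), and no other class exceeded 15 CPM. Thinned, a Ccl12 UMI was seen in 9.91% and 14.6% of phagocytes and in 0% (up to 0.909%) and 0.160% (0.0435 to 0.408%) of tumour-class cells, shares that hold for 1000 UMIs per cell. Without thinning, 17 of 412 primary tumour-class cells (4.13%) and 97 of 2556 chemoresistant ones (3.79%) held 1, against 2.68% and 1.13% of the shallower B-lineage cells.

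The phagocytes were not alike in these ligands. They fell into 7 clusters of at least 50 cells in a library, built without the 9 genes, and none had more markers of another class than of its own among its leading genes. Cluster 11, led by Cxcl2, Il1b and Ccl4, had the highest Ccl2 of the chemoresistant library, at 1803 CPM (1754 to 1854) against 583 CPM (551 to 617) in the primary library. It made up 13.1% of chemoresistant phagocytes and held 50.03% of their Ccl2 UMIs. In the primary library it made up 7.66% and held 11.0%. Ccl7 followed, with 776 CPM (744 to 810) and 303 CPM (280 to 328) in that cluster. In cluster 4, led by Arg1, Ccl2 differed little between the libraries, at 409.9 CPM (398 to 422) and 408 CPM (391 to 426).

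Ccl8 was concentrated in a single cluster of the primary library. Cluster 25 held 91 primary phagocytes and 1 chemoresistant one, and its primary cells carried 6091 CPM of Ccl8 (5917 to 6269), with a UMI in 94.5% of them. These 91 cells were 3.56% of primary phagocytes and held 70.5% of their Ccl8 UMIs. They also had the highest primary levels of Ccl7, at 1029.9 CPM (959 to 1105), of Ccl2, at 848 CPM (784 to 916), and of Ccl12, at 616 CPM (562 to 675). Ccr2 was at 126 CPM (102 to 154) in them, the lowest of the primary clusters. Their leading genes included Retnla, the lectin genes Mrc1, Fcna and Clec10a and the scavenger receptor gene Cd163, and Lyve1, a receptor carried by some tissue-resident macrophages, was at 817 CPM (754 to 883), against at most 148 CPM in the other primary clusters.

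Besides the phagocytes, cluster 25 held 26 primary cells classed as adipocytes and 18 of no class, and no adipocyte was found in the chemoresistant library. The adipocyte class, 27 primary cells, had 7 Ccl8 UMIs in 7 cells, or 26.9 CPM (10.8 to 55.3). Of the 10 adipocyte markers, Adipoq, Plin1, Plin4, Cidec, Pck1, Retn and Lep had 0 UMIs in the 91 phagocytes. Fabp4 and Cfd were higher there than in any other primary phagocyte cluster, Fabp4 at 89.6 CPM (11.2 to 53.0 in the others) and Cfd at 25.0 CPM (4.24 to 9.33). Car3 was under 10 CPM in every primary phagocyte cluster, at 3.95 CPM in cluster 25 and 1.12 to 3.41 CPM in the others. The summed list was at 118.5 CPM in cluster 25 against 22.8 to 62.6 CPM. The 82 phagocytes with at most 1 adipocyte marker had 5367 CPM of Ccl8 (5194 to 5544). The 8 phagocytes with 2 markers had 12940 CPM (12110 to 13810), and the 1 with 3 or 4 markers had 7461 CPM (5720 to 9565). Whether the adipose tissue of the primary pool bears on this cluster was not tested. With 1 library per group, a cluster of 1 library cannot be told apart from a trait of that library.

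**Figure D3:**
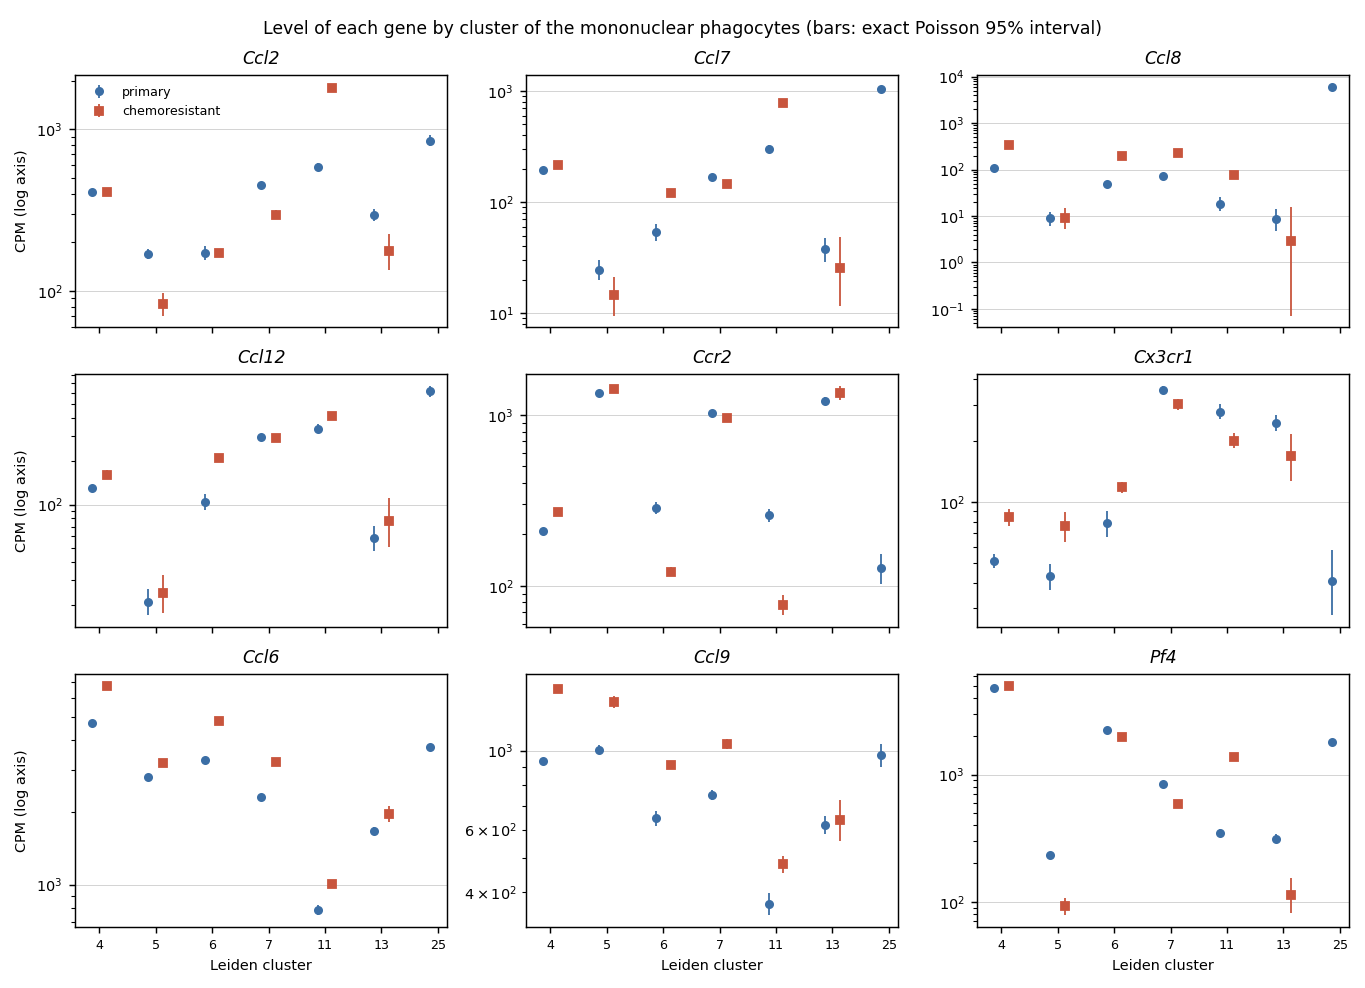
Level of each gene (CPM, log axis) in the mononuclear phagocytes of each cluster, with circles for the primary and squares for the chemoresistant library and bars for exact Poisson 95% intervals. Cluster 25 has primary cells only and the highest Ccl8, and cluster 11 has the highest Ccl2 of the chemoresistant library.

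Outside cluster 25, every cluster that had over 10 CPM of Ccl8 in a library had more in the chemoresistant one. The pairs were 111 and 330.0 CPM in cluster 4, 47.9 and 192 CPM in cluster 6, 73.5 and 229.7 CPM in cluster 7 and 18.5 and 74.9 CPM in cluster 11. Clusters 5 and 13 were under 10 CPM in both libraries. Cluster 6, led by Saa3 and Lyz2, numbered 179 primary and 1156 chemoresistant phagocytes and held 38.7% of the chemoresistant Ccl8 UMIs of the class.

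The receptor Ccr2 was at 599 CPM (590.5 to 608) in primary and 392 CPM (384 to 400.1) in chemoresistant phagocytes. Conventional dendritic cells came second, with 292 CPM (278 to 306) and 278 CPM (259.9 to 297), and T and NK cells followed, with 84.5 CPM (76.7 to 93.0) and 65.4 CPM (44.7 to 92.3). The intervals of the 3 classes did not overlap within either library. Thinned, Ccr2 was in 37.3% and 29.2% of phagocytes, 20.9% and 20.1% of dendritic cells, 6.25% and 4.67% of T and NK cells and 1.55% and 1.26% of B-lineage cells. Among dendritic cells, type 1 cells had 438 and 448 CPM, type 2 cells 343 and 363 CPM, and the migratory cells, which carry Ccr7, 6.90 and 6.23 CPM.

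Within phagocytes Ccr2 ranged widely. Monocytes by marker count had 1340 CPM of Ccr2 (1280 to 1402) and 1197 CPM (1119 to 1280). Clusters 5, 7 and 13 had 1350, 1029 and 1217 CPM in the primary and 1429, 955 and 1346 CPM in the chemoresistant library, and the other clusters 77.1 to 285 CPM. Cluster 5 alone, 13.9% and 10.6% of phagocytes, held 32.9% and 28.3% of their Ccr2 UMIs. Cluster 5 was mixed, since phagocytes made up 59.3% of its classed cells over both libraries. The values given for it use its phagocytes alone. Cell by cell after thinning, Pf4 was seen in 34.3% of primary phagocytes with Ccr2 and 60.9% of those without, and in 31.8% and 58.3% in the chemoresistant library. Ccr2 was seen in 16.1% and 7.24% of phagocytes with Ccl8 and in 39.0% and 31.2% of the others.

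Cx3cr1 was at 137 CPM (133 to 141) in primary and 144 CPM (139 to 149) in chemoresistant phagocytes, and other classes had at most 20.3 CPM. Clusters 7, 11 and 13 were highest, with 244 to 356 CPM in the primary and 167 to 302 CPM in the chemoresistant library. Clusters 5 and 13, both rich in Ccr2, thus differed in Cx3cr1, with 43.1 CPM (37.0 to 49.8) against 244 CPM (222 to 269) in the primary library. Dendritic cells, which ranked second for Ccr2, had 6.34 and 6.36 CPM of Cx3cr1, close to the 4.57 and 3.55 CPM of B-lineage cells. The tumour class held 15.7 and 10.3 Cx3cr1 UMIs per 100 of Ccl6 against 4.87 and 2.30 in B-lineage cells, at thinned shares of 0.990% and 0.359% with intervals that overlapped those of B-lineage cells.

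Ccl6 was at 3336 CPM (3315 to 3358) and 4370 CPM (4343 to 4397) in phagocytes. Neutrophils were second, with 632 CPM (605 to 660.3) and 953 CPM (881 to 1028), and dendritic cells came after them, with 209 CPM (198 to 222) and 268 CPM (250.4 to 287). Thinned, 35.8% and 49.8% of neutrophils held a Ccl6 UMI, above the 10.9% and 14.6% of B-lineage cells. T and NK cells, B-lineage cells and fibroblasts had 86.0 to 93.9 CPM in the primary library with overlapping intervals. Ccl6 was lowest in cluster 11 of the phagocytes, at 785 and 1006 CPM, where Ccl2 was high.

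Ccl9 was at 824 CPM (814 to 835) and 1041 CPM (1028 to 1054) in phagocytes. Dendritic cells were second with 102 CPM (93.9 to 111) and 116 CPM (104.5 to 129), and in the chemoresistant library their interval overlapped that of neutrophils (61.4 to 106). Type 2 dendritic cells carried most of it, with 169 and 263 CPM against 19.1 and 19.6 CPM in type 1 cells. B-lineage cells had 23.6 and 40.2 CPM.

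Pf4 was at 2487 CPM (2469 to 2505) and 2201 CPM (2182 to 2220.4) in phagocytes. Cluster 4 had 4821 and 4977 CPM and accounted for 80.8% of phagocyte Pf4 UMIs in the primary and 50.7% in the chemoresistant library. Cluster 5, rich in Ccr2, had 232 and 92.1 CPM. Cells of the platelet lineage numbered 3 in the primary and 0 in the chemoresistant library. Pf4 in tumour-class cells, at 39.9 and 18.44 CPM, was seen after thinning in 5.20% and 2.67% of cells, fewer than among B-lineage cells.

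Some ligands were seen in the same cells. After thinning, Ccl7 was found in 20.9% of primary phagocytes with Ccl2 and 6.55% of those without, and in 29.3% and 6.92% in the chemoresistant library. Ccl12 was found in 19.3% and 7.12% of primary phagocytes with and without Ccl2 and in 23.2% and 12.0% of chemoresistant ones. For Ccl8 the shares with and without Ccl2 were closer, at 9.15% and 7.17% in the primary and 7.68% and 8.44% in the chemoresistant library. Cells of 1 library are not replicates, and these shares describe the 2 pools.

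The comparison of the libraries asked whether the genes differed between treatment naive and cisplatin-exposed tumours within a class. It used the log2 ratio of chemoresistant over primary CPM, with 5 CPM added to each, for genes reaching 10 CPM in either library, and counted a gene as different at 2-fold. In phagocytes, 0 of 9 members passed in either direction, where 0.445% of the 8547 genes compared were higher and 0.784% lower. The member ratios ran from -0.61 (Ccr2) to 0.39 (Ccl12 and Ccl6), with a median of 0.19 beside -0.24 over all genes compared. Relative to that shift of all genes, Ccl8 and Pf4, at -0.20 and -0.18, turned to 0.04 and 0.06. Ccr2 stayed lower, at -0.37. Without cluster 25, Ccl8 was 1.45 in place of -0.20 and passed the 2-fold limit.

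In the tumour class, 5 members could be compared and 0 passed, with 2.02% of genes higher and 4.52% lower. Ccl2 was at -0.47, or 1.41-fold (1.31 to 1.52) lower, and Pf4 at -0.94. The class rested on different clusters, with 213 of 412 primary cells in cluster 10 and 1463 of 2556 chemoresistant cells in cluster 1. Ccl2 was at 126 CPM (117 to 135) and 106 CPM (97.7 to 115) in cluster 10. In cluster 12 it was at 60.6 CPM (39.2 to 89.4) and 35.9 CPM (27.0 to 46.9). Cluster 1 went the other way, at 11.4 CPM (7.92 to 16.0) and 50.8 CPM (48.6 to 53.2). The direction of Ccl2 was not shared by all cells of the class when it was divided by its tumour and mesothelial lists, although these did not part the cells into separate classes. Cells with equal numbers of both markers (93 and 327 cells) held 487 of the 853 primary Ccl2 UMIs and were at 194 CPM (178 to 212) and 40.6 CPM (36.1 to 45.6), 4.788-fold lower (4.13 to 5.56). In those led by tumour markers (194 and 1960 cells) it was at 55.0 and 67.7 CPM, 1.23-fold higher (1.08 to 1.41). In those led by mesothelial markers (125 and 269 cells) it was at 38.4 and 19.99 CPM, 1.92-fold lower (1.45 to 2.55). As given above, a small part of the tumour class carried most of its Ccl2 in each library. The intervals of these folds, and of the 1.41-fold of the whole class, cover counting error and not the spread between cells. These Ccl2 folds may therefore rest on few cells. Of the members, 1 of 5 passed in cells led by tumour markers, lower (Pf4, -1.004, with 1.62% of genes higher and 3.41% lower). In cells led by mesothelial markers 0 of 4 passed (1.99% and 5.14%). In cells with equal numbers of both markers Ccl2 was past 2-fold, lower, and no share over all genes is given for them. In neutrophils 0 of 9 passed (6.26% of genes higher and 4.24% lower), and the ratio of Ccl6 was 0.59. In conventional dendritic cells 0 of 5 passed (0.635% and 1.27%), and Ccr2 was at -0.07. In T and NK cells 0 of 6 passed (3.64% and 4.88%), and in B-lineage cells 0 of 7 (2.19% and 2.36%). Among finer groups, 0 of 7 passed in B cells (1.9% and 2.51%), 0 of 7 in T cells (3.77% and 5.15%), 0 of 6 in type 1 (1.24% and 5.87%) and 0 of 7 in type 2 dendritic cells (0.84% and 2.7%). In migratory dendritic cells 1 of 4 passed (1.69% and 4.47%), Ccl8, with 16 and 2 UMIs.

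Fibroblasts differed, with 6 of 8 members lower and 0 higher, where 19.8% of all genes were lower and 8.21% higher. Ccl2 went from 344 to 21.3 CPM, 16.2-fold lower (12.0 to 22.0) with a log2 ratio of -3.73. Ccl7 went from 357 to 45.0 CPM, 7.95-fold lower (6.38 to 9.95) with a ratio of -2.86, which was -1.17 with classes taken from clusters. The class rested on different clusters: 106 of 111 primary cells were in cluster 15, led by Mgp, Dcn and Col1a2, and 190 of 196 chemoresistant cells in cluster 16, led by Col1a1 and Col3a1 with Spp1 and Ndufa4l2. The other 4, Ccl8 (-1.57), Ccr2 (-1.36), Cx3cr1 (-1.32) and Pf4 (-1.74), were at low levels whose thinned shares overlapped those of B-lineage cells. Their calls were not stable: thinning put Ccl8 and Ccr2 at -0.76, and keeping cells with markers of a second lineage put Ccr2 at -0.82 and Pf4 at -0.27. For Cx3cr1, 1 primary fibroblast held 11 of the 17 UMIs (64.7%), and the ratio was -0.47 by the mean over cells and 1.015 after thinning. Over all cells of cluster 15 (446 and 51), Ccl2 was at 519 CPM (501 to 538) and 136 CPM (108 to 169) and Ccl7 at 179 CPM (168 to 189.9) and 105 CPM (80.7 to 135). Fibroblast-cluster cells that took no class, 324 in the primary library, had 547 CPM of Ccl2 and 149.8 CPM of Ccl7, and the 307 chemoresistant ones 33.7 and 87.2 CPM.

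**Figure D4:**
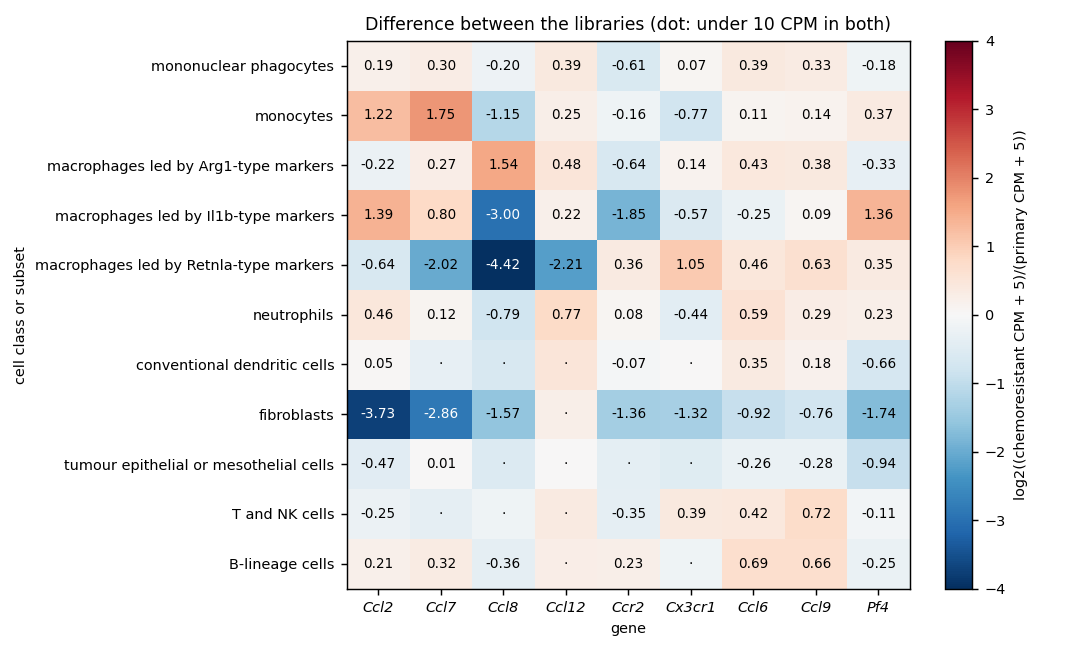
Log2 ratio of chemoresistant over primary CPM (5 CPM added) for each gene in cell classes and in subsets of the mononuclear phagocytes, with red for higher and blue for lower in the chemoresistant library and a dot where a gene was under 10 CPM in both. Ratios are within 1 of 0 for phagocytes as a whole, -3.73 and -2.86 for Ccl2 and Ccl7 in fibroblasts, and of both signs for Ccl8 among the phagocyte subsets.

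The phagocyte subsets, named by the marker list with most genes detected, went in different directions. In monocytes (157 and 206 cells), Ccl2 was at 450.0 and 1055 CPM, 2.35-fold higher (2.11 to 2.61) in the chemoresistant library, and Ccl7 at 68.4 and 242 CPM, 3.54-fold higher (2.75 to 4.60). The 10 highest cells held 43.2% and 51.2% of the Ccl2 UMIs and 76.8% and 66.5% of the Ccl7 UMIs. Thinned, 20.5% (14.5 to 27.7%) and 34.8% (28.3 to 41.8%) of monocytes held a Ccl2 UMI. In phagocytes of the Ccr2-rich clusters, Ccl2 was lower in the chemoresistant library. It was at 169 and 83.1 CPM in cluster 5, 454 and 296 CPM in cluster 7 and 297 and 176 CPM in cluster 13. In all, 2 of 9 members were higher and 1 lower in monocytes, where 3.78% of genes were higher and 3.83% lower. The lower one was Ccl8, with 17 and 2 UMIs, a fold of 0.225 (0.0252 to 0.948).

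In macrophages led by Il1b-type markers (176 and 265 cells), 2 members were higher and 2 lower (2.6% and 10.1% of genes). Ccl2 was at 678 and 1785 CPM, 2.63-fold higher (2.46 to 2.82), and Pf4 at 452 and 1168 CPM, 2.59-fold higher (2.38 to 2.81). Ccr2 was at 419.8 and 113 CPM, 3.71-fold lower (3.14 to 4.42). Ccl8 was at 534 and 62.6 CPM, with a ratio of -2.995 that was 1.64 without cluster 25.

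In macrophages led by Retnla-type markers (155 and 85 cells), 1 member was higher and 3 lower (1.9% and 8.84% of genes). Ccl8 was at 2195 and 97.9 CPM, 22.4-fold lower (16.9 to 30.5) with a ratio of -4.42. Ccl7 was 4.21-fold lower (3.13 to 5.79) and Ccl12 4.94-fold lower (3.37 to 7.53). Cx3cr1, at 30.8 and 69.4 CPM, was 2.25-fold higher (1.41 to 3.56), and its log2 ratio of 1.05 was under the 2-fold limit in 5 of 11 alternatives, among them thinning (0.77) and leaving out cluster 25 (0.84). Without cluster 25 the ratio of Ccl8 was 0.04, that of Ccl12 0.36 and that of Ccl7 -0.27. In macrophages led by Arg1-type markers (1734 and 2694 cells), Ccl8 alone passed, at 76.0 and 230.0 CPM or 3.03-fold higher (2.85 to 3.21), with 0.457% of genes higher and 0.739% lower. In macrophages of no subset (332 and 511 cells) 0 of 9 passed (1.08% and 1.55%).

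Other genes of the pathway were read from 4 fixed lists, some of whose genes (Csf1r, Ccrl2, Ccl22, Ccl24, Icam2) also served as markers. In phagocytes, 0 of 3 other receptors, 0 of 4 other ligands, 0 of 3 growth factor genes and 0 of 10 adhesion genes passed 2-fold. Of all genes compared there, 0.445% were higher and 0.784% lower, and in the tumour class 2.02% and 4.52%. In the tumour class, Cx3cl1, the Cx3cr1 ligand, was at 57.5 and 14.4 CPM and was the 1 of 2 ligands that passed, lower in the chemoresistant library. Of 3 adhesion genes there, Icam1 (125 and 33.2 CPM) and Vcam1 (19.8 and 5.63 CPM), endothelial and stromal partners of leukocyte integrins, were lower. The tumour class rested on different clusters in the 2 libraries, as given for Ccl2, and these values were not split by cluster.

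In fibroblasts Icam1 was at 362 and 10.3 CPM and Vcam1 at 283 and 17.4 CPM, and with Itgam they made 3 of 4 adhesion genes lower, with a list median of -2.85 beside -0.27 over all genes. Of all genes compared in fibroblasts, 19.8% were lower and 8.21% higher. Csf1, the macrophage growth factor, was at 189 and 55.2 CPM and was the 1 of 4 growth factor genes that passed. Ccl11, an eosinophil chemokine that lies between Ccl7 and Ccl12 on chromosome 11, had 248 UMIs in primary fibroblasts and 0 in chemoresistant ones. Ccl3 (14.3 and 1.97 CPM) and the decoy receptor Ccrl2 (15.5 and 1.97 CPM) were lower as well. The clusters behind these fibroblast values are those given for Ccl2.

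In T and NK cells all 4 other ligands compared were higher in the chemoresistant library, where 3.64% of genes were higher and 4.88% lower. Ccl5 was at 3097 and 14546 CPM, Ccl4 at 136 and 819 CPM, Ccl3 at 46.1 and 353 CPM and Ccl24, with 9 chemoresistant UMIs, at 4.77 and 18.38 CPM. The receptor Ccr1 was lower there, with 56 UMIs and 1. In neutrophils 2 of 4 ligands were lower, Ccl3 at 1949 and 623 CPM and Ccl4 at 1624 and 534 CPM, as were Ccrl2 (611 and 215 CPM) and Icam1 (183 and 52.3 CPM). In dendritic cells Ccl5 was higher, at 1836 and 5273 CPM, and Ccl3 lower, at 20.8 and 6.04 CPM. In B-lineage cells Ccl5 was higher, at 16.1 and 45.9 CPM, far under its levels in T and NK cells and dendritic cells. The part of free RNA in this B-lineage value was not tested.

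The genes most like each member were taken by Pearson's r of log2(CPM + 5) over 16 sums of class and library, among 8248 genes. The sums share their library and its free RNA, so the values are descriptions. Nearest to Ccl2 were the complement gene C4b (0.918), Pla2g15 (0.911) and Agtrap (0.902). Nearest to Ccl7 were C4b (0.959), Cxcl14 (0.941) and Gpnmb (0.941). For Ccl8 they were the scavenger receptor genes Msr1 (0.960) and Cd163 (0.957) and Tfec (0.959), and for Ccl12 the complement genes C1qc (0.988) and C1qa (0.985) and Cd5l (0.985). Ms4a6c (0.941) and Aif1 (0.922) were among the genes nearest to Ccr2. Cx3cr1 was nearest to the protease gene Ctsb (0.957), C3ar1 (0.953) and Mfsd1 (0.95). Ccl6 was nearest to Lair1 (0.975), Wfdc17 (0.973) and Lyz2 (0.973), and Ccl9 to Lair1 (0.986), Fcgr1 (0.983) and Clec4a1 (0.968). Pf4 was nearest to Arg1 (0.982), F13a1 (0.978) and C1qb (0.978).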

How the data were processed

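The values are UMI counts as deposited by the authors, whole numbers for each gene in each barcode. Per the file headers they come from Cell Ranger 8.0.1, and per the submitters' processing notes the build was mm10. Which annotation was used is not stated in the sources used here. The deposited barcode and gene lists (unit: other) name the columns and rows. The members and lists were chosen with earlier results of these data known. Barcodes with at least 500 UMIs, 250 genes and at most 20% mitochondrial UMIs were kept. Scrublet (scanpy 1.11.5, expected rate 0.08) ranked doublets, and the same share rule (0.8% per 1000 barcodes) removed 1316 primary and 1778 chemoresistant barcodes, since the automatic threshold marked 0 of the latter.

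Classes came from the number of detected genes in lists of 10 markers, with thresholds set after the distribution was seen. Cells with 5 or more markers of a second lineage were set aside. In all, 2311 and 2113 cells took no class. Levels are CPM of summed counts with exact Poisson intervals, shares have exact Clopper-Pearson intervals, and folds have exact conditional intervals, all 95%. Thinning drew 1000 UMIs per cell and left out shallower cells (2532 of 2558 and 3679 of 3769 phagocytes, 1239 of 1306 and 243 of 659 neutrophils, and 2966 of 2989 and 2390 of 2920 B-lineage cells were used). Clusters were made with Leiden (leidenalg 0.10.2, 2000 variable genes without the members, 30 components, 15 neighbours, resolution 1.0). Leading genes were ranked by fold over the median cluster (20 CPM added, detected in at least 20% of cells). No test was possible with 1 library per group. Named genes were the 9 members, the 3 genes most like each and the listed genes past 2-fold, and of these the text prints those the results turn on. Some of these genes are not reported here. Clusters 11 and 25 and the genes named for them were chosen after their values were seen. The procedure was tested on simulated data. The alternatives are given in the closing section.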

Additional observations from a re-analysis of the deposited data

Results flagged for a closer look

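Some genes were past 2-fold in opposite directions in different groups of cells of the same 2 libraries, given here as log2 ratios of chemoresistant over primary. The differences between groups of cells were not tested. Ccl2 was at -3.73 in fibroblasts, 1.39 in macrophages led by Il1b-type markers and 1.22 in monocytes. Ccl7 was at -2.86 in fibroblasts, -2.02 in macrophages led by Retnla-type markers and 1.75 in monocytes. Ccl8 was at -1.57 in fibroblasts, -2.995 in macrophages led by Il1b-type, -4.42 in those led by Retnla-type and 1.54 in those led by Arg1-type markers, and at -1.15 in monocytes. Cx3cr1 was at -1.32 in fibroblasts, where 1 primary cell held 64.7% of the UMIs and thinning turned the ratio to 1.015, and at 1.05 in macrophages led by Retnla-type markers, a value under 2-fold in 5 of 11 alternatives. Pf4 was at -1.74 in fibroblasts and 1.36 in macrophages led by Il1b-type markers. The fibroblast values set 1 cluster of the primary library against another of the chemoresistant library.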

How the results depend on the processing

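Each of 85 log2 ratios was recomputed under 11 alternatives, and the counts of ratios below are of these 85. Pf4 in cells led by tumour markers and Ccl8 in migratory dendritic cells, both past 2-fold, were not among the 85. Ccl2 in tumour-class cells with equal numbers of tumour and mesothelial markers was past 2-fold and also not among them. Of the 935 values, 156 moved by more than the counting interval, and 4 ratios past 2-fold changed sign. Of the 18 ratios past 2-fold, 8 stayed past it in the same direction under every alternative: Ccl2 in fibroblasts (-4.13 to -3.11), monocytes (1.004 to 1.42) and macrophages led by Il1b-type markers (1.25 to 1.61), Ccl7 in fibroblasts (-3.11 to -1.17) and monocytes (1.55 to 2.38), Ccl8 in macrophages led by Arg1-type markers (1.10 to 1.77), and Ccr2 (-1.88 to -1.63) and Pf4 (1.19 to 1.69) in those led by Il1b-type markers. The other 10 did not. Cx3cr1 lost 2-fold in 5 of 11 alternatives in macrophages led by Retnla-type markers (0.77 to 1.22) and in 2 in fibroblasts. In fibroblasts Ccr2 lost it in 2, and Ccl8 (to -0.76) and Pf4 (to -0.27) in 1 each. Ccl8 in monocytes lost it in 1 (to -0.99). Leaving out cluster 25, an alternative chosen after seeing the data, turned Ccl8 to 1.64 in macrophages led by Il1b-type and 0.0417 in those led by Retnla-type markers and Ccl12 to 0.364 in the latter, and it made 1 member (Ccl8) higher in phagocytes. Without that cluster, Ccl7 in those led by Retnla-type markers was at -0.27. Thinning turned Cx3cr1 in fibroblasts to 1.015. At 1.5-fold, 1 member was lower in phagocytes (Ccr2) and 1 in the tumour class (Pf4). In the tumour class, 2 members were lower by the mean over cells (Ccl9 -1.04, Pf4 -1.26), 2 after thinning (Pf4 -1.06, and Ccl8 -1.21, which was under 10 CPM without thinning), 1 with the automatic doublet threshold (Pf4 -1.002) and 1 with 1 CPM added (Pf4 -1.07). The cause was not tested. With all genes of at least 1 count, 0.171% were higher and 0.339% lower in phagocytes and 0.848% and 1.91% in the tumour class. Keeping cells with markers of a second lineage was also chosen after seeing the data. No paired analysis was possible because each group is 1 library.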

Other observations

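Mast cells or basophils, few in both libraries, had high levels of Ccl2 and Ccl7, and of Ccl12 they had 1 and 0 UMIs. Ccl2 was at 1578 CPM (1239 to 1981) in the 17 primary cells and 2028 CPM (1271 to 3070.2) in the 7 chemoresistant ones, with a UMI in 12 and 7 of them. Ccl7 was at 1215 CPM (920.5 to 1575) and 6176 CPM (4786 to 7843), from 57 and 67 UMIs. These groups are under the 50 cells asked of a class, and the values describe few cells. In the 27 primary adipocytes, Ccl2 had 71 UMIs or 272 CPM and Ccl7 32 UMIs or 123 CPM. Cells that took no class accounted for 36.2% of Ccl2 UMIs in the primary and 19.6% in the chemoresistant library. Of the primary ones, 324 lay in fibroblast clusters (547 CPM of Ccl2) and 580 in tumour-class clusters (129.7 CPM).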
